A study of Mus musculus with 6 samples.

Results

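The interferon receptor chains are 4 genes, Ifngr1 and Ifngr2 for the type II receptor and Ifnar1 and Ifnar2 for the type I receptor. They were taken by gene symbol, with every probe set that the platform table gives to one of these symbols alone, which made 8 probe sets of the 45037 tested and 4 genes of 18193. The samples were 6 cultures of Ba/F3, a mouse cell line labelled as interleukin-3-dependent pro-B cells, each measured on 1 Affymetrix array. All 6 carried SPAG9-JAK2, the kinase JAK2 fused to the scaffold protein SPAG9, behind a retroviral Tet-On promoter. In 3 cultures the fusion was switched on with doxycycline at 500 ng/ml (induced), and 3 received no doxycycline (uninduced), with RNA taken after 48 hours. No culture had doxycycline without the fusion, so the drug and the fusion cannot be told apart, and the labels do not say whether the line is 1 clone.

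Interferons act through receptors made of paired chains that carry Janus kinases on their inner side. Interferon gamma binds IFNGR1, which carries JAK1, and IFNGR2 brings JAK2 into the complex. The type I interferons, alpha and beta among them, bind IFNAR2, which carries JAK1, and IFNAR1, which carries TYK2. The kinases phosphorylate STAT transcription factors, which then act at GAS elements, mainly after interferon gamma, or together with IRF9 at ISRE elements, mainly after type I interferon. Most cell types express both receptors, and JAK2 also serves the interleukin-3 receptor. The arrays measured RNA, and surface receptor was not measured.

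The promoters of the 4 genes are shown because the question put to the values below is whether the receptor genes moved with the targets of the pathway. Each line gives the 250 bases before the start site, 5′ to 3′ on the plus strand of GRCm38.p6, from RefSeq, which matched all 4 genes. Capitals mark GC boxes, the letters GGGCGG on either strand, that lie wholly in the stretch. They overlap in Ifngr2.
Ifngr1 chr10:19591699-19591948: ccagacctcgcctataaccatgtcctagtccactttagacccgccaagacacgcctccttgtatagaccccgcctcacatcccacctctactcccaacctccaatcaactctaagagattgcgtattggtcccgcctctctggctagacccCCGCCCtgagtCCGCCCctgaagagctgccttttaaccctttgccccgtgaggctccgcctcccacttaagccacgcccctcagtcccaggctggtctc
Ifngr2 chr16:91546809-91547058: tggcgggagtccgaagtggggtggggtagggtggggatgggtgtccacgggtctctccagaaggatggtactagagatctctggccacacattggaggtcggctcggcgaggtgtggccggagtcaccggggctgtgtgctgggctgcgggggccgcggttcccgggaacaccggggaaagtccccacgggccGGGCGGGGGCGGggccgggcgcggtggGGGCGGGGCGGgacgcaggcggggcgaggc
Ifnar1 chr16:91484965-91485214: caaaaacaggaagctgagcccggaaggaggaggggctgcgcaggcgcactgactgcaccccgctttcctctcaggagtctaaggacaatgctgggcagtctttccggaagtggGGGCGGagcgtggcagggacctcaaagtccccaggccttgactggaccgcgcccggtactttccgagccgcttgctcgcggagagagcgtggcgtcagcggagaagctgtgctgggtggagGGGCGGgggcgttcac
Ifnar2 chr16:91372533-91372782: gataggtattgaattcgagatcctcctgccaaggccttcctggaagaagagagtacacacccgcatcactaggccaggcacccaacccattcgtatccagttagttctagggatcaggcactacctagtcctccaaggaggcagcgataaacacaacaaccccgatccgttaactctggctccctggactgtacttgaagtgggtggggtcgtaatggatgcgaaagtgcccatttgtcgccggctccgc

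Motifs were counted in the full window, which adds the 50 bases after the start. All 4 windows held a GC box, as did 35.7% of the 32851 promoters in the table, with 2 in Ifngr1, 4 in Ifngr2, 4 in Ifnar1 and 1 in Ifnar2, where it spans the start site. Their GC content was 60.3% for Ifngr1, 74.3% for Ifngr2, 68.3% for Ifnar1 and 57.0% for Ifnar2, all above the median promoter at 52.7%. None held the TATA box letters TATAAA, which 13.6% of promoters hold on either strand. The ISRE core GAAANNGAAA was in none of the 4 windows and in 3.44% of all promoters. The GAS letters TTCNNNGAA were in the windows of Ifnar1 and Ifnar2 and in 8.3% of all promoters. These matches are set out below, in capitals within 10 bases on each side, beside that of Irf1, an interferon-inducible transcription factor gene whose promoter holds a known GAS element. Each gene is followed by the distance of the first capital from the start site.
Ifnar1 at -5, chr16:91485200-91485228: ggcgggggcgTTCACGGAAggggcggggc
Ifnar2 at -214, chr16:91372559-91372587: tgccaaggccTTCCTGGAAgaagagagta
Irf1 at -90, chr11:53769914-53769942: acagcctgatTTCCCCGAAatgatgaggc
A match describes letters and is not a binding site. Ifnar2, Ifnar1 and Ifngr2 lie on chromosome 16 in that order, with the interleukin-10 receptor gene Il10rb between Ifnar2 and Ifnar1, whereas Ifngr1 lies on chromosome 10.

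**Figure D1:**
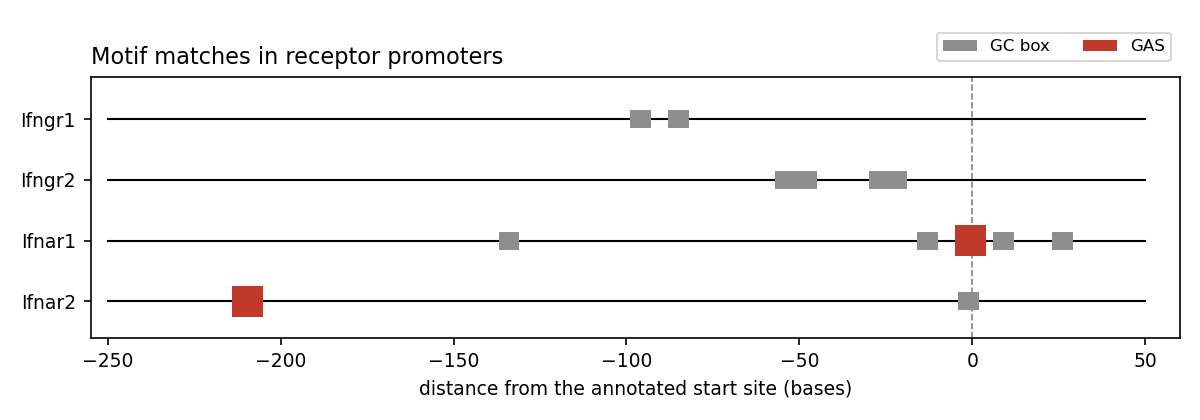
Positions of GC box (grey) and GAS (red) letter matches in the 4 receptor promoters, along the distance in bases from the annotated start site (dashed line, 250 bases before to 50 after). Ifnar1 and Ifnar2 each hold 1 GAS match, and Ifngr2 and Ifnar1 hold 4 GC boxes each.

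No receptor gene passed the test between induced and uninduced cells. Ifnar2 showed the largest difference of the 8 probe sets, with its brightest probe set lower on every induced array, and the other 7 lay within 0.24 of no change on the log2 scale. In limma 0 of the 8 probe sets had an adjusted p under 0.05, where 17 of all 45037 probe sets (0.0377%) did, and with the replicate number as a block 0 of all probe sets passed (6401 at an unadjusted p under 0.05). At an unadjusted p under 0.05 there was 1 receptor probe set of 8, beside 14.1% of all probe sets. The 3 arrays of one group all lay on 1 side of the other group's for 2 of the 8, both lower in induced cells, beside 20.6% of all probe sets in either direction and 11.2% lower. The median change was -0.14 over the 8 receptor probe sets and -0.03 over all probe sets. Changes are differences of log2(signal + 16), induced minus uninduced, with their standard error (SE).

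Array-wide facts bear on these values. Median signals were 46.5 to 55.2 on induced and 46.3 to 63.8 on uninduced arrays. Both arrays numbered 1 lay below the other 4 for 6.64% of probe sets and above them for 14.6%. The silent level was judged from 24 liver and brain genes, whose median was 5.33 and 90th percentile 5.86 on the log2 scale, although Mbp among them stood at 9.91. Of 11 measured pro-B markers, 5 averaged above that 90th percentile, and Ebf1, Rag1, Cd79a, Blnk, Dntt and Il7r did not, so only part of the markers behind the pro-B label was seen here. The 5 were Ptprc (13.38) and Cd79b (8.59), and, only a little above it, Igll1 (6.16), Pax5 (6.06) and Vpreb1 (5.91). Mast cell markers were above that percentile for 3 of 8 genes and T cell markers for 3 of 6, with Hdc (6.03), Cd3d (5.88) and Cd8a (6.22) only a little above it. Granulocyte and monocyte markers were above it for 8 of 11 genes, among them S100a8 (5.97) and Itgam (6.12) by only a little. The median level over all genes was 6.88, itself above that percentile, so a level above it is common and marks no cell type. Of the 11 granulocyte and monocyte markers 6 were lower in all induced arrays, beside 13.4% of all genes. In limma 0 of the 11 passed the adjusted threshold, and 6 had an unadjusted p under 0.05 (16.1% of all genes). The summed signal of the 11 ran from 651 to 3523 on induced and from 2290 to 7094 on uninduced arrays, lowest in each group on the array numbered 1. That sum mainly follows the brightest of them, Ngp (mean level 10.54) and Adgre1 (9.03).

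Ifngr1, the chain that binds interferon gamma, varied more between replicates than between groups. Its 1 probe set, 1448167_at, gave signals of 787, 1852 and 1820 in induced replicates 1, 2 and 3, against 557, 1728 and 1751 in uninduced replicates 1, 2 and 3. Replicate 1 was low in both groups, and the groups overlapped. The mean level was 10.45 ± 0.70 in induced and 10.24 ± 0.93 in uninduced cells (SD, n = 3 each) on the log2 scale. The change was 0.21 ± 0.55 (SE), with an unadjusted 95% interval from -1.09 to 1.52 and an adjusted p of 0.898 in limma. Within replicate numbers the differences were 0.49, 0.10 and 0.05 for numbers 1, 2 and 3. Without uninduced replicate 1 the change was -0.32, with the low induced replicate 1 still in. Without both arrays numbered 1 it was 0.08 ± 0.13 (SE).

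The gap between the arrays numbered 1 and the other 4 was the main feature of Ifngr1. Replicates 2 and 3 exceeded replicate 1 by a mean of 1.21 in induced and 1.62 in uninduced cells on the log2 scale, or 1.41 over both. A gap at least this large in the same direction was found for 255 of 45037 probe sets (0.566%), a description made after the values were seen. The same gap was 0.03 for Ifngr2, -0.07 for Ifnar1 and 0.65 for Ifnar2. Of the 11 granulocyte and monocyte markers 5 were also lowest on the array numbered 1 in each group, namely Ltf, Ngp, Mpo, Adgre1 and Itgam, and the other 6 were not. So were 3 of 11 pro-B, 3 of 8 mast cell and 2 of 6 T cell markers. The share over all genes was not analysed here, so these counts have no background to be read against. They include genes whose mean level lay under 5.86, the silent cut-off used above, namely Ltf (5.75), Ebf1 (5.27), Cpa3 (5.41) and Cd3e (4.96). The other genes counted lay above it. Mpo, a granule enzyme gene of neutrophil precursors, stood at 5.62, 7.83 and 9.0 in induced and at 6.05, 8.21 and 8.05 in uninduced replicates 1, 2 and 3. Others of the list went otherwise in induced replicates 1, 2 and 3. Elane stood there at 5.93, 6.68 and 5.57, Csf1r at 7.12, 7.06 and 6.71, and Cd68 at 6.63, 6.40 and 6.80. In uninduced cells replicate 1 was the lowest for these genes too. The part of any cell type in the Ifngr1 pattern was not tested, and fewer cells of a type and less RNA per cell cannot be told apart in these bulk samples.

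Ifngr2, the chain that brings JAK2 to the interferon gamma receptor, had overlapping groups on both of its probe sets. Probe set 1423557_at, the brighter, gave signals of 272, 257 and 283 in the induced replicates, against 277, 308 and 273 in the uninduced replicates. No array stood apart. The change was -0.08 ± 0.17 (SE), with an adjusted p of 0.879 in limma, and the interval in fold terms ran from 0.72 to 1.25. Probe set 1423558_at gave 251, 187 and 284 in induced cells, against 266, 200 and 320 in uninduced cells. Here replicate 2 was the lowest and replicate 3 the highest in both groups, and the change was -0.11 ± 0.25 (SE), with an adjusted p of 0.881 in limma.

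Ifnar1, the type I receptor chain that carries TYK2, was slightly lower on induced arrays. Probe set 1449026_at gave signals of 397, 408 and 454 in induced cells, against 557, 458 and 475 in uninduced cells. The groups did not overlap, but induced replicate 3 and uninduced replicate 2 nearly met, and the largest difference was that of the arrays numbered 1. The change was -0.23 ± 0.18 (SE), with an adjusted p of 0.611 in limma. In fold terms it was 0.852, with an interval from 0.635 to 1.14. The other probe set, 1442222_at, was dim, with signals of 53.9, 68.4 and 71.3 in induced cells, against 67.8, 55.3 and 66.8 in uninduced cells. Its mean level of 6.32 was little above the silent level, and it changed by 0.02 ± 0.19 (SE), with overlapping groups.

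Ifnar2, the chain that binds type I interferon with high affinity, is made in mice as a transmembrane and as soluble forms by alternative splicing, and RefSeq lists 3 curated transcripts for it. Its brightest probe set, 1451462_a_at, gave signals of 1062, 1799 and 1589 in induced replicates 1, 2 and 3, against 2104, 3188 and 3365 in the uninduced replicates. Every induced array was lower than every uninduced array, and the array numbered 1 was the lowest of each group. Mean signals were 1483 ± 380 in induced and 2886 ± 683 in uninduced cells (SD, n = 3 each). The change was -0.96 ± 0.29 (SE), a fold of 0.515 with an interval from 0.319 to 0.832. It had an unadjusted p of 0.014, and with an adjusted p of 0.247 in limma it did not pass. Of all probe sets, 5.67% had a smaller p and 3.72% a lower change. Within replicate numbers the differences were -0.98, -0.82 and -1.08 for numbers 1, 2 and 3. Of the 11 granulocyte and monocyte markers 6 were also lower on all induced arrays, beside 13.4% of all genes. The summed signal of the 11, in which the bright Ngp and Adgre1 weigh most, overlapped between the groups (651 to 3523 in induced and 2290 to 7094 in uninduced cells). The part of these markers in the Ifnar2 difference was not tested.

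The remaining Ifnar2 probe sets showed much smaller differences. Probe set 1440169_x_at gave signals of 1532, 1060.1 and 1201 in induced cells, against 1413, 1459 and 1565 in uninduced cells. The groups overlapped because induced replicate 1 was high, and the change was -0.24 ± 0.20 (SE), with an adjusted p of 0.646 in limma. Probe set 1427691_a_at gave 352, 434 and 375 in induced cells, against 371, 442 and 508 in uninduced cells. The groups overlapped here too, and the change was -0.17 ± 0.20 (SE), with an adjusted p of 0.743 in limma.

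Set against these within each array, the change of the brightest Ifnar2 probe set minus that of 1427691_a_at was -0.78 on the log2 scale. An exact two-sided permutation test of 3 against 3 arrays gave p = 0.1, the smallest it can give. Minus that of 1440169_x_at it was -0.72, with p = 0.2 in the exact permutation test. After adjustment over these 2 comparisons both p-values were 0.2. By the platform's naming, the suffix _a marks probes shared by transcripts of 1 gene and _x marks probes that can bind other transcripts. Which transcript forms each probe set detects was not analysed here.

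**Figure D2:**
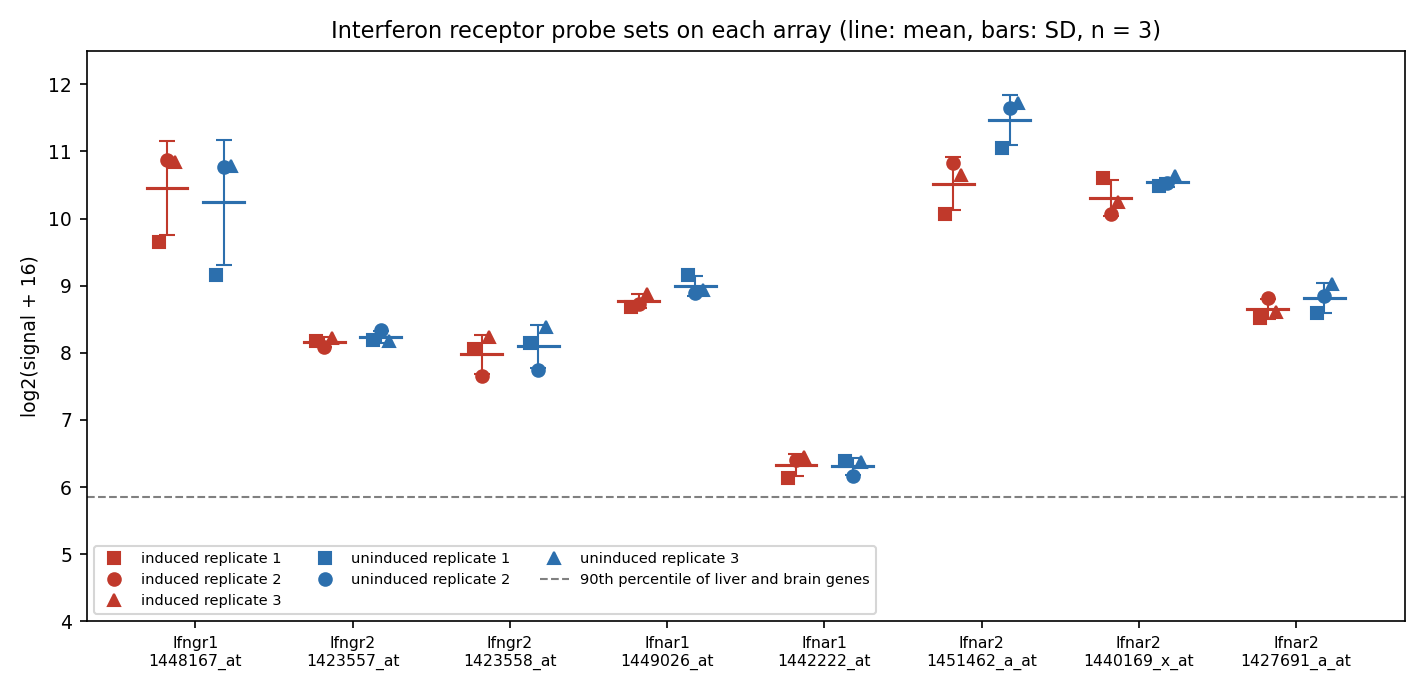
Level of each receptor probe set on every array, as log2(signal + 16), with induced arrays in red left of uninduced arrays in blue, marker shape for the replicate number, a line for the mean and bars for the SD (n = 3). The groups lie apart for Ifnar2 1451462_a_at and, narrowly, for Ifnar1 1449026_at, and Ifngr1 shows replicate 1 low in both groups.

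The chains were compared in pairs to ask whether they changed unequally, with each gene's brightest probe set and 6 pairs in all. Relative to Ifnar2, the change of Ifngr1 was higher by 1.17, and the difference was 1.46, 0.92 and 1.13 within numbers 1, 2 and 3. Relative to Ifnar2, the change of Ifngr2 was higher by 0.88, with 0.95, 0.57 and 1.12 within numbers. For both of these pairs the groups did not overlap, with p = 0.1 in an exact two-sided permutation test, the smallest it can give, and an adjusted p of 0.3 over the 6 pairs. The change of Ifnar1 exceeded that of Ifnar2 by 0.73, with an exact permutation p = 0.2. The other 3 pairs differed by 0.16 to 0.45, with exact permutation p-values from 0.3 to 0.5. The design therefore does not show that any of the 4 chains changed differently from another.

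**Figure D3:**
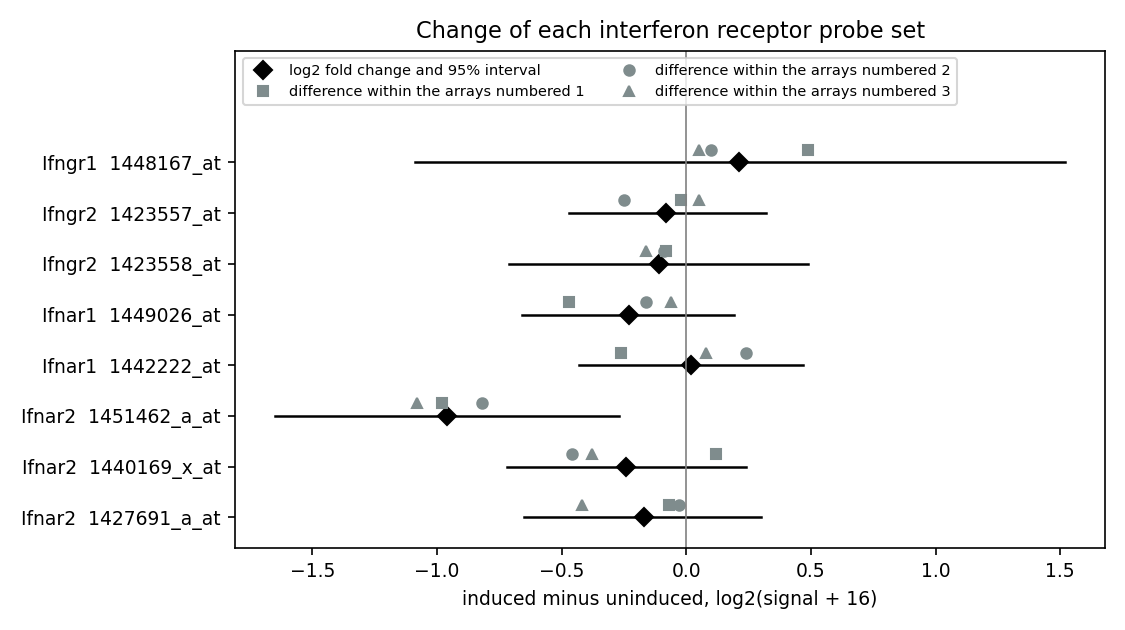
Change of each receptor probe set (induced minus uninduced, log2 scale), with black diamonds for the change, black lines for its 95% interval, and grey markers for the difference within each replicate number. The interval of Ifnar2 1451462_a_at runs from -1.65 to -0.27, and the other 7 intervals include 0.

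The genes next in the pathway were read beside the receptors from lists chosen with earlier results of these data known. Among the kinases, Jak1 stood at -0.32 ± 0.27 (SE), Jak2 at -0.54 ± 0.42 and Tyk2 at -0.12 ± 0.21, with overlapping groups for all 3. What the array's Jak2 probes read of the fusion transcript was not analysed here. Stat2 and Irf9, members of the ISRE-binding complex, stood at 1.42 ± 0.25 and 1.04 ± 0.19 (SE). Stat2 had levels of 9.08, 9.91 and 9.68 in induced cells, against 8.09, 8.10 and 8.20 in uninduced cells, so the groups were well apart. In limma 0 of the 5 measured genes of this list passed, with adjusted p-values from 0.136 to 0.836. At an unadjusted p under 0.05 there were 2 of the 5, beside 16.1% of all genes.

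Inhibitors that act on these receptors and their kinases differed among themselves. Usp18, which binds IFNAR2 and displaces JAK1 from it, had levels of 10.77, 11.95 and 10.87 in induced cells, against 9.59, 7.28 and 6.87 in uninduced cells. The groups lay far apart, with uninduced replicate 1 the highest of its group, and the change was 3.28 ± 0.74 (SE), with an adjusted p of 0.177 in limma. Socs1, an inhibitor of JAK kinases at the interferon gamma receptor, stood at 1.39 ± 0.22 (SE), and Ptpn6, the phosphatase SHP-1, at 1.84 ± 0.27 (SE), also with groups apart. Socs3, Cish, Ptpn1, Ptpn2, Ptpn11 and Pias1 had overlapping groups and stood between -0.23 and 0.60. Of the 9 genes 0 passed in limma, and 3 had an unadjusted p under 0.05, beside 16.1% of all genes. Groups were apart for 3, all higher, beside 24.1% of all genes in either direction and 1942 of 18193 genes apart and higher.

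Target genes of the pathway had higher median changes than the receptor genes, with exceptions. Of 13 GAS type targets 3 rose and 0 fell in limma, where 9 of all 18193 genes (0.0495%) passed. They were the host defence GTPase genes Gbp2 (6.61 ± 0.51, SE), Gbp3 (4.87 ± 0.43) and Iigp1 (6.26 ± 0.53). The median change of these 13 genes was 2.62, beside -0.06 over all genes and -0.15 over the 4 receptor genes. Of the 13, 9 had groups apart and higher and 1 apart and lower, Cxcl9 (-0.25 ± 0.18), beside 24.1% of all genes apart in either direction. Irf8 (-0.16 ± 0.44) and Ciita (0.03 ± 0.29) were near 0. Irf1, whose GAS match is printed above, had levels of 11.95, 11.97 and 11.49 in induced cells, against 9.84, 9.31 and 9.43 in uninduced cells. The groups were well apart, and the change of 2.28 ± 0.23 (SE) had an adjusted p of 0.0569 in limma. The 13 measured ISRE type targets had a median change of 2.24 and all were positive, with 0 past the adjusted threshold in limma and 13 at an unadjusted p under 0.05, beside 16.1% of all genes. Groups were apart for 10 of the 13, beside the same 24.1%, and the smallest change was that of Mx2 (0.55 ± 0.21). Among them Irf7 stood at 2.77 ± 0.34 (SE) and Oasl2 at 4.45 ± 0.48 (SE).

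**Figure D4:**
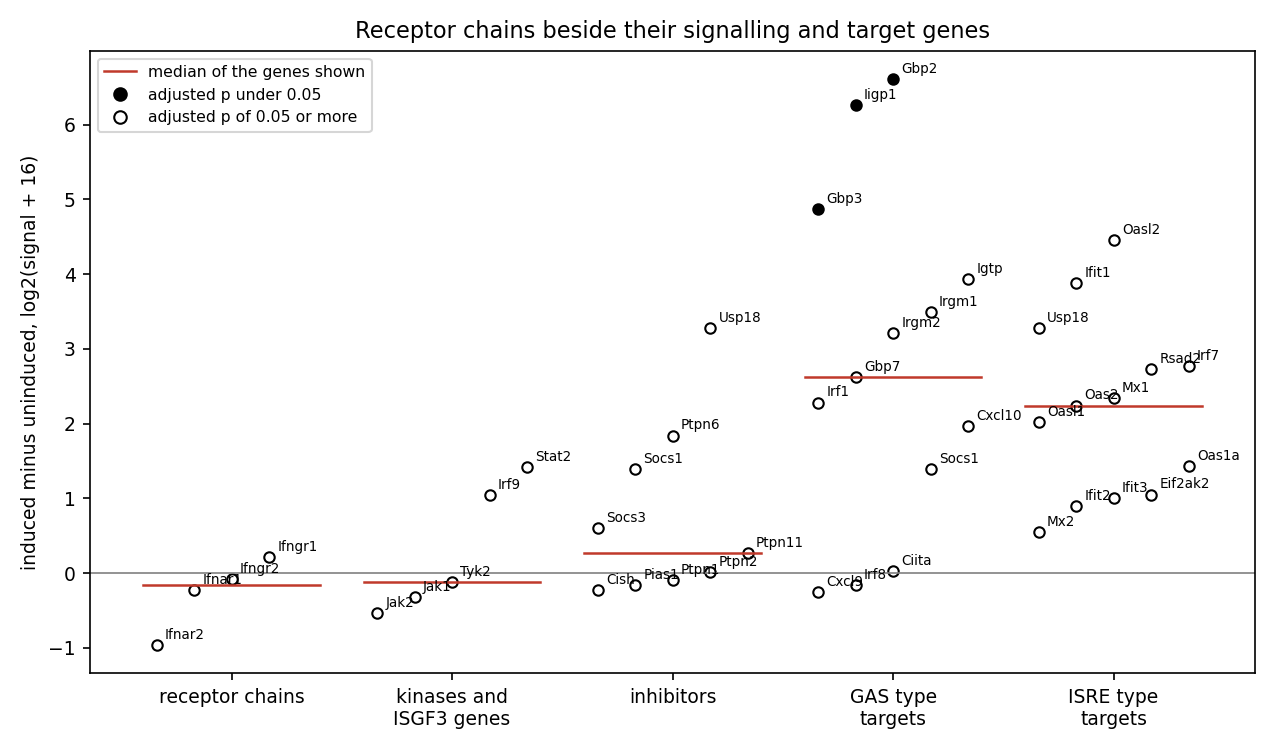
Change of the 4 receptor genes (brightest probe set) beside genes of the signalling chain, inhibitors and target genes, as induced minus uninduced on the log2 scale. Filled points have an adjusted p under 0.05 in limma, and red lines are medians. Receptor genes lie between -0.96 and 0.21, and GAS type targets reach 6.61.

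RNA of the ligands was at or near the silent level for most genes. Of 16 interferon ligand genes listed 9 were measured, and 8 of these lay between 4.15 and 6.60 on every array. Ifng stood at 4.84, 4.15 and 4.18 in induced cells, against 4.19, 4.17 and 4.47 in uninduced cells. Ifnb1, interferon beta, stood at 5.83, 5.71 and 5.71 in induced cells, against 5.91, 6.54 and 6.34 in uninduced cells. The induced arrays were the lower ones, close to the level of silent genes. The exception was Ifnz, a type I interferon gene, at 9.17, 9.13 and 9.24 in induced cells, against 9.90, 9.72 and 9.90 in uninduced cells. It stood at -0.66 ± 0.17 (SE), with an adjusted p of 0.203 in limma, and near-identical interferon genes can share its probes.

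The related receptors of the class II cytokine receptor family were mostly silent. Il10rb, the chain shared by receptors for interleukin-10, interleukin-22 and interferon lambda, was the exception among 8, with levels of 9.96, 10.12 and 9.91 in induced cells, against 10.04, 10.25 and 10.16 in uninduced cells. The groups overlapped and the change was -0.15 ± 0.17 (SE). Ifnlr1, the specific chain for interferon lambda, lay between 4.37 and 6.33. None of the 8 genes had groups apart.

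The neighbours on chromosome 16 stood on both sides of 0. Beyond Ifngr2, Tmem50b stood at -0.15 ± 0.45 (SE) and Gart, an enzyme of purine synthesis, at 0.87 ± 0.28 (SE), with an adjusted p of 0.267 in limma. Donson, a replication fork protein gene, stood at 1.0 ± 0.22 (SE), with an adjusted p of 0.176, and Son, a splicing factor gene, at -0.21 ± 0.19 (SE). Of the 12 measured genes on that list 2 had groups apart and higher, Gart and Donson, and 1 apart and lower, Cryzl1 (-0.27 ± 0.19), a share close to the 24.1% of all genes. On the other side of Ifnar2, the dim genes Olig1, Olig2 and 4932438H23Rik stood at -0.63 ± 0.42, -0.17 ± 0.34 and -1.27 ± 0.37 (SE). The last is not on the list and was chosen after its values were seen. It had groups apart, with a mean level of 5.57 and an adjusted p of 0.24 in limma. Beside Ifngr1 on chromosome 10, the cytokine receptor genes Il22ra2 and Il20ra stood at 0.64 ± 0.44 and -0.32 ± 0.27 (SE), near the silent level. Of the 7 measured genes there 1 had groups apart, the kinase gene Map3k5 (-0.46 ± 0.18, lower), and Tnfaip3, an inhibitor of NF-kB signalling, stood at -1.3 ± 0.76 with overlapping groups.

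Of 9 measured genes that handle the receptors after synthesis 0 passed in limma, 2 had an unadjusted p under 0.05, beside 16.1% of all genes, and 3 had groups apart, beside 24.1%. Those 3 were Stub1 and Cltc, higher, and Prkd2, lower. Prkd2, a protein kinase that promotes endocytosis of IFNAR1, had levels of 8.11, 8.14 and 8.0 in induced cells, against 8.86, 9.18 and 8.91 in uninduced cells. The change was -0.90 ± 0.18 (SE), with an adjusted p of 0.16. Btrc and Fbxw11, ubiquitin ligase subunits that recognise IFNAR1, stood at 0.01 ± 0.28 and -0.11 ± 0.17 (SE). Stub1, a ubiquitin ligase that acts with chaperones, stood at 0.72 ± 0.21 (SE).

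Genes with the most similar pattern were sought by the root mean square difference between log2 values, each centred on its own mean over the 6 arrays, among 10195 other genes at or above the median level. For Ifnar2 they were Mycn, a MYC family transcription factor gene (0.083), Tmem203 (0.101) and Ube2w (0.102), against a spread of 0.57 for Ifnar2 itself. Mycn had levels of 13.06, 13.98 and 13.89 in induced cells, against 14.20, 14.88 and 14.91 in uninduced cells, so it shared both the lower induced arrays and the lower replicate 1. For Ifngr1 they were Glcci1 (0.122), Chn2 (0.174) and Pstpip2 (0.182), against a spread of 0.68. Ifngr2 and Ifnar1 varied little themselves (0.08 and 0.15), and their nearest genes were Zfp637, Eif4h and Zfp523 (0.039 to 0.041) and Mcm9, Krt10 and Card10 (0.038 to 0.046). With only 6 arrays many genes come close to any pattern, and these are descriptions.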

How the data were processed

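RNA of 3 induced and 3 uninduced cultures was measured on 6 arrays, with groups and replicate numbers from the labels' titles. The deposited values are signal intensities on a linear scale, made with Affymetrix Expression Console 1.4.1 per the submitters' processing notes. Which algorithm summarised the probes is not stated there, and every array had a mean of 500 after trimming 2% at each end. Without detection calls, a list of liver and brain genes stood for silence.

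The values were put on the scale log2(signal + 16) without renormalizing, the 64 control probe sets of 45101 were left out, and 45037 were tested with limma 3.58.1 (lmFit, eBayes, two-sided, Benjamini-Hochberg over all 45037, threshold 0.05) in R 4.3.3. Exactly 1 symbol was given for 34945, several for 932 and none for 9160, and a gene is represented by its probe set with the highest mean. Nothing in the labels says that the cultures were separate experiments, so the p-values reflect their spread alone, which may be technical, and having only 6 arrays limits precision. Same-numbered arrays deviated together (correlations of 0.289, 0.173 and 0.170 over probe sets at or above the median level, for numbers 1, 2 and 3), although numbers 2 and 3 did so across numbers too (0.123 and 0.170), and a replicate block was fitted as an alternative.

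The named genes are all receptor probe sets, members of the context lists, and the 3 genes nearest in pattern to each receptor gene. Members and lists were chosen with earlier results of these data known. Alternatives were median centring, quantile normalization, pseudocounts of 1 and 64, a filter at the median level, 1 probe set per gene, trended and robust variance, the replicate block, and leaving out arrays. Figures were drawn with matplotlib 3.10.9, and permutation tests used scipy 1.17.1. Some genes of the lists were not analysed here.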

Additional observations from a re-analysis of the deposited data

How the results depend on the processing

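No receptor probe set passed an adjusted p of 0.05 in limma under any of the alternatives run, and 110 of 116 recomputed changes kept their direction. The change of Ifnar2 ranged from -1.17 to -0.74 when single arrays were left out, lowest without uninduced replicate 1, and its adjusted p ranged from 0.0735 to 0.542 over all alternatives. That of Ifnar1 ranged from -0.29 to -0.15, that of Ifngr2 from -0.11 to -0.02 and that of Ifngr1 from -0.32 to 0.62. The Ifngr1 direction turned only without uninduced replicate 1. The probe sets Ifngr2 1423558_at and Ifnar1 1442222_at also turned in direction when single arrays were left out, over ranges from -0.28 to 0.05 and from -0.05 to 0.12. Within the arrays numbered 3 the Ifngr2 difference was 0.05. The mean change of the 4 genes was -0.26, and -0.11 with all probe sets of each gene averaged. The count of probe sets called in limma, 17 in all, was 30 with median centring (25 of them higher, against 9 of 17), 0 with a pseudocount of 1 (5364 at an unadjusted p under 0.05), 136 with a pseudocount of 64, 171 with the filter, 34 with 1 probe set per gene, 541 with trended and robust variance, 0 with the replicate block (6401 unadjusted) and 0 without both arrays numbered 1 (11167 unadjusted). Leaving out single arrays gave from 0 to 1374, with 1374 without uninduced replicate 1, 11 without induced replicate 1 and 0 without any other array (4137 to 4512 unadjusted). The causes were not tested. The replicate block changed no call of a receptor probe set. Small differences of Ifnar1 1442222_at are limited by its low signal.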

Other observations

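Other cytokine receptors of the line gave values beside which the interferon receptors can be read. Il3ra, the specific chain of the interleukin-3 receptor, had levels of 8.70, 9.07 and 8.61 in induced cells, against 9.25, 9.61 and 9.72 in uninduced cells, and stood at -0.73 ± 0.22 (SE) with an adjusted p of 0.248 in limma. Il4ra, the interleukin-4 receptor chain, had levels of 9.02, 9.21 and 8.62 in induced cells, against 10.08, 9.77 and 9.65 in uninduced cells, and stood at -0.88 ± 0.23 (SE) with an adjusted p of 0.209. Both had groups apart, as the brightest Ifnar2 probe set did and the remaining Ifnar2 probe sets did not. Csf2rb, a beta chain that signals for the interleukin-3 receptor, stood at 0.70 ± 0.29 (SE) with groups that overlapped. Csf2rb2, a related beta chain gene, stood at 0.28 ± 0.33 (SE), also with overlapping groups and with an adjusted p of 0.754 in limma. Of the 10 measured genes of that list 3 had groups apart, all lower in induced cells, beside 13.4% of all genes lower. Besides Il3ra and Il4ra they included Il7r (-0.54 ± 0.24, SE), whose mean level of 5.51 was near the silent level. In limma 0 of the 10 passed. At an unadjusted p under 0.05 there were 3, namely Il3ra, Il4ra and Csf2rb, beside 16.1% of all genes. Of these Csf2rb was higher in induced cells, and Il7r was not among them.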
